A study of Mus musculus and Homo sapiens with 22 samples.

Results

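The 10 genes described here encode tissue-restricted splicing regulators, followed in N2A cells, a mouse neuroblastoma line: Rbfox1, Rbfox2, Rbfox3, Nova1, Nova2, Elavl2, Elavl3, Elavl4, Mbnl1 and Mbnl2. They were chosen by name from 4 gene families, and all 10 were among the 22667 mouse genes of the N2A files. The study asked how nSR100 (gene Srrm4), Ptbp1 and U2af65 (gene U2af2) act on alternative splicing. It holds 22 samples, of which 8 are N2A RNA-seq samples in 6 files. The 2 hairpin groups were stable populations kept in 2 ug/mL puromycin after lentiviral transduction, with an shRNA against GFP (shGFP) or one targeting the nSR100 mRNA (shnSR100). Each hairpin group is a single pooled file of 2 runs. The siRNA cells carried no hairpin and were collected 48 hours after transfection of a non-targeting pool (siCtrl, libraries a and b), a U2af65 pool (siU2af65, 1 library) or a Ptbp1 pool (siPtbp1, 1 library). No label says that siCtrl a and b came from separate cultures, so the p-values below reflect variation between 2 libraries that may be only technical. The siU2af65 library carries letter a and the siPtbp1 library letter b, and no label says what the letters mark.

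The Rbfox proteins bind GCATG elements in RNA and activate or repress an exon depending on the side on which they sit. Nova proteins bind clusters of YCAY elements in neurons, and the neuronal Elavl proteins (HuB, HuC and HuD, encoded by Elavl2, Elavl3 and Elavl4) bind U-rich RNA, where they act on splicing and on mRNA stability and translation. Mbnl proteins bind YGCY elements, drive the switch from fetal to adult exon use, and are titrated by CUG repeat RNA in myotonic dystrophy. Nova, neuronal Elavl and Rbfox3 (the NeuN antigen) are classical neuronal genes, whereas Rbfox2, Mbnl1 and Mbnl2 are expressed in many tissues. The values here are reads per gene and so describe the level of each regulator's mRNA, not its protein and not exon inclusion.

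The files held 60220620 to 77138004 reads in genes. The labels were checked at the targeted genes: Ptbp1 was 8.53 RPKM in siPtbp1 against 124.1 to 157.8 elsewhere, U2af2 was 18.43 RPKM in siU2af65 against 90.33 to 113.3 elsewhere, and Srrm4 was 2.5 RPKM in shnSR100 against 4.51 to 12.03 elsewhere. RPKM is the read count scaled to gene length and library size. Of 14 genes fixed as N2A identity markers, 11 had a mean of at least 1 RPKM, among them Tubb3 and Stmn2, and Nefl and Nefm were among those that did not. Fibroblast markers summed to 0.41 to 0.84 RPKM in the siRNA files and to 7.27 and 12.2 RPKM in the hairpin files. Glial markers summed to 2.45 to 5.16 RPKM and immune markers to 0.66 to 3.92 RPKM, both highest in siU2af65, and Ptprc, Kdr and Col3a1 were listed at 0.00 RPKM in all 6 files.

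The neuronal Elavl genes and Rbfox2 were the most abundant of the 10, and Rbfox3 was nearly absent. By mean RPKM over the 6 files the order was Elavl2 (41.1 ± 5.13, SD, n = 6), Rbfox2 (39.2 ± 4.31), Elavl4 (37.5 ± 6.73), Elavl3 (33.6 ± 7.37), Mbnl2 (23.5 ± 5.55), Mbnl1 (22.4 ± 8.05), Nova2 (9.70 ± 2.25), Nova1 (5.37 ± 1.67), Rbfox1 (1.24 ± 0.304) and Rbfox3 (0.1 ± 0.139). These SDs span different treatments. The first 4 cannot be ordered beyond their spread, since each neighbouring pair kept its order in 4 of 6 files, and the same held for Mbnl2 and Mbnl1. Elavl3 exceeded Mbnl2, Mbnl1 exceeded Nova2 and Nova2 exceeded Nova1 in 6 of 6 files, although the ranges of each pair overlapped. Rbfox1 lay below Nova1 and above Rbfox3 with no overlap. Among the 11510 genes averaging 1 RPKM or more, whose median was 14.4 RPKM, Elavl2 exceeded 81.7% and Rbfox1 exceeded 2.05%.

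**Figure D1:**
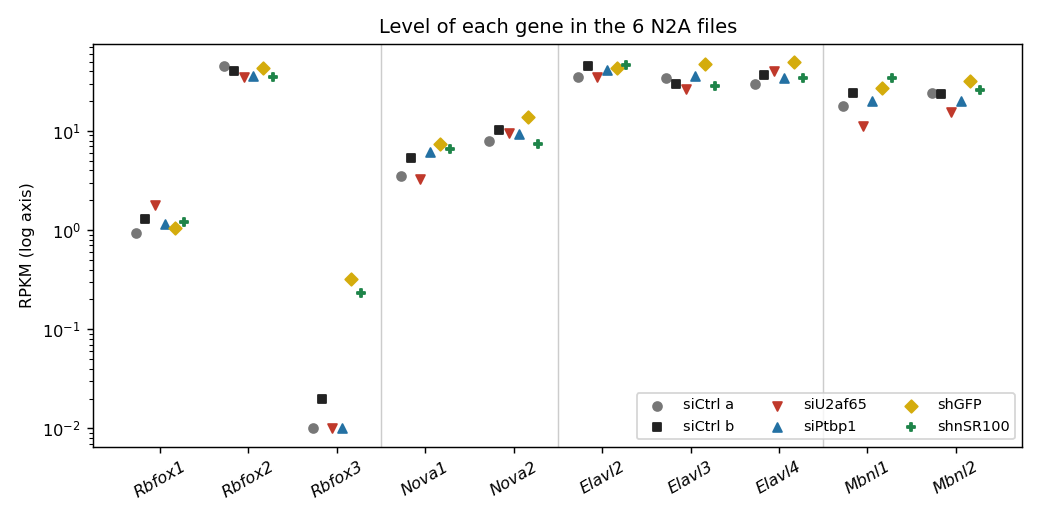
RPKM (log axis) of the 10 genes, with 1 point for each of the 6 N2A files and grey lines between the families. Rbfox3 is the only one of the 10 whose hairpin files, at 0.32 and 0.23 RPKM, stand more than 10-fold above its siRNA files, at 0.01 to 0.02.

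Within the Rbfox family nearly all of the level came from Rbfox2. It took 95.1 to 98.0% of the family's summed RPKM, against 2.02 to 4.88% for Rbfox1, the member best known from neurons and muscle, and at most 0.721% for Rbfox3. The neuronal Elavl family was shared evenly: Elavl2 took 31.0 to 42.9%, Elavl3 25.9 to 34.5% and Elavl4 30.2 to 39.8%. Their summed level was the highest of the 4 families, at 99.2 to 139.3 RPKM, against 36.8 to 46.0 for Rbfox, 26.6 to 60.4 for Mbnl and 11.5 to 21.1 for Nova. Nova2 held more of the Nova level than Nova1 in every file, with Nova1 lowest at 25.5% in siU2af65 and highest at 47.2% in shnSR100. Mbnl1 held 41.7% of the Mbnl sum in siU2af65 and 56.9% in shnSR100. RPKM compares these paralogs per length, but no source used here says how reads matching more than 1 paralog were counted.

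**Figure D2:**
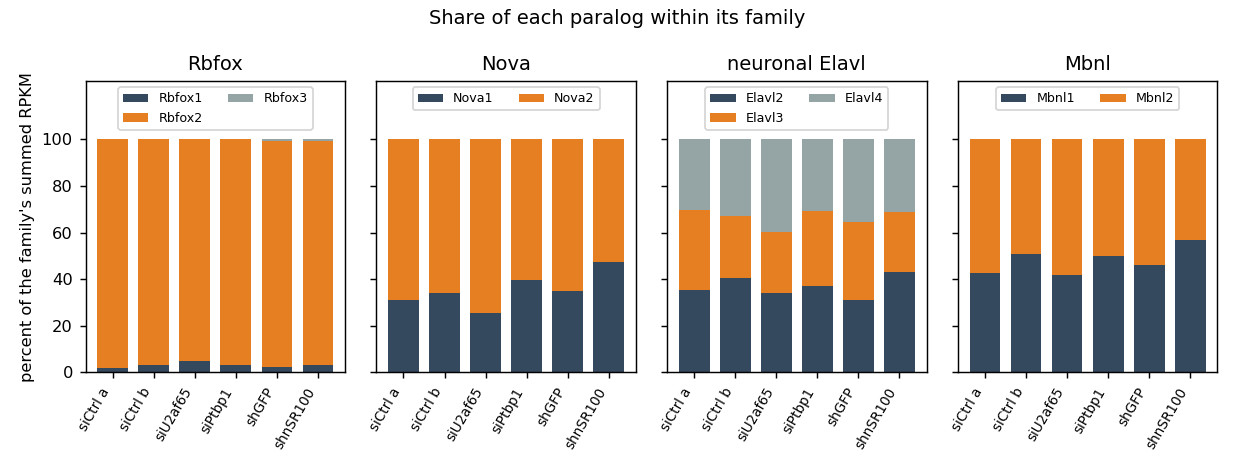
Stacked bars give each paralog's percent of the summed RPKM of its family in the 6 N2A files. Rbfox2 fills at least 95.1% of the Rbfox bar in every file, while the 3 neuronal Elavl genes divide theirs into parts of 25.9 to 42.9%.

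After U2af65 knockdown Mbnl1 fell 2.01-fold. In RPKM it stood at 17.87 in siCtrl a, 23.96 in siCtrl b, 11.1 in siU2af65, 19.9 in siPtbp1, 27.4 in shGFP and 34.3 in shnSR100. The siU2af65 library was the lowest of the 6, and both hairpin files lay above all 4 siRNA files. On counts scaled by TMM (a between-library correction), the 2 control libraries gave 118 ± 17.4 CPM (SD) for Mbnl1, against 58.8 CPM after U2af65 knockdown. The log2 difference was -1.01 (SE 0.23, 95% interval -1.53 to -0.49, edgeR quasi-likelihood adjusted p = 0.0414, and 0.00406 to 0.395 over the alternatives). This adjusted p was 0.0668 when genes had to average 5 RPKM to be tested and 0.395 with shGFP added to the controls. Its log2 difference was -0.85 against siCtrl a alone and -1.15 against siCtrl b alone. Markers of other cells were also higher in siU2af65: glial markers summed to 5.16 RPKM (2.59 and 2.74 in the controls), immune markers to 3.92 (0.66 and 1.18) and endothelial markers to 9.38 (4.61 and 5.22). Among these lists and the identity, fibroblast and muscle markers the test called only Tyrobp, a myeloid adaptor gene (log2 difference 2.68, SE 0.59, adjusted p = 0.0368). The part of these markers in the Mbnl1 difference was not tested.

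Mbnl2 had a difference in the same direction that did not pass the test. It stood at 24.2 RPKM in siCtrl a, 23.4 in siCtrl b, 15.5 in siU2af65, 19.97 in siPtbp1, 31.9 in shGFP and 26.0 in shnSR100. Again siU2af65 was the lowest file, and the hairpin files were the highest in RPKM. The log2 difference of siU2af65 from the controls was -0.72 (SE 0.22, 95% interval -1.21 to -0.24, edgeR adjusted p = 0.0841). It was called only when no filter on low levels was used (adjusted p = 0.0486). Mbnl3, the third family member, was listed at 0.03 RPKM or less in the siRNA files and was not tested.

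The RefSeq promoter table of GRCm38.p6 holds windows for 9 of the 10 genes, 19 in all, each running from 250 bases before to 50 bases after an annotated start. Rbfox2 had no entry. Short stretches upstream of the Mbnl1 and Mbnl2 starts are shown because these paralogs had the largest negative differences after U2af65 knockdown. The capitals mark the GC box GGGCGG (searched on both strands), present in 3 overlapping copies in the Mbnl1 stretch and 1 copy in the Mbnl2 stretch.
Mbnl1 (GRCm38.p6, chr3:60501120-60501149, + strand): gagcGGGCGGGCGGGCGGgggccggggctg
Mbnl2 (GRCm38.p6, chr14:120275639-120275668, + strand): ggattggtgggctgagcctGGGCGGggcct
The capitals begin 55 bases before the downstream one of 2 annotated Mbnl1 starts and 11 bases before the Mbnl2 start. The other Mbnl1 window has no GC box, contains TATAAA, and is 39.3% GC against 75% for the downstream one. A GC box was found in 35.7% of all 32851 windows and in 9 of the 19 windows of these genes, which belong to Mbnl1, Mbnl2, Elavl2, Elavl3 and Nova2. TATAAA was found in 13.6% of all windows and in 1 window each of Mbnl1 and Elavl3. Windows of 1 gene can overlap, so the 19 are not independent, and a match describes letters, not a bound site.

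The other 7 tested genes did not pass the test after U2af65 knockdown. Rbfox3 did not reach the mean of 1 RPKM needed for testing, so 9 of 10 were tested: 1 fell, 0 rose and 8 did not pass, against 5.24% of the 11237 genes tested that were called in either direction (1.82% higher, 3.42% lower). The median log2 difference was -0.37 over the 9 genes and 0.00 over all genes tested, with 7 negative and 2 positive. In siU2af65 6 of the 9 lay below both controls, as did 39.5% of all genes tested. Elavl4 (encoding HuD) and Rbfox1 lay above both controls, as did 40.5% of all genes, with log2 differences of 0.18 (SE 0.21, edgeR adjusted p = 0.651) and 0.60 (SE 0.43, adjusted p = 0.441).

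Rbfox1 rests on few reads, 240 in siCtrl a, 399 in siCtrl b, 495 in siU2af65, 323 in siPtbp1, 251 in shGFP and 356 in shnSR100. Its interval after U2af65 knockdown ran from -0.37 to 1.58. Rbfox2, the widely expressed paralog, stood at 45.1 RPKM in siCtrl a, 40.6 in siCtrl b, 35.1 in siU2af65, 36.0 in siPtbp1, 43.0 in shGFP and 35.3 in shnSR100. The siU2af65 and siPtbp1 values were below both siCtrl values, and shnSR100 was below shGFP. The siRNA differences were -0.39 for siU2af65 (SE 0.25, edgeR adjusted p = 0.373) and -0.31 for siPtbp1 (SE 0.25, adjusted p = 0.999).

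Nova1 lay on opposite sides of the control mean in the siRNA knockdowns. It stood at 3.55 RPKM in siCtrl a, 5.28 in siCtrl b, 3.25 in siU2af65, 6.19 in siPtbp1, 7.38 in shGFP and 6.57 in shnSR100. The controls themselves differed, siCtrl b being 149% of siCtrl a (95% counting interval 140 to 158%, exact binomial), and siU2af65 lay close to siCtrl a. The log2 difference from the controls was -0.54 in siU2af65 (SE 0.29, edgeR adjusted p = 0.295) and 0.45 in siPtbp1 (SE 0.28, adjusted p = 0.999). Tested directly, siU2af65 minus siPtbp1 was -0.98 (SE 0.33, 95% interval -1.72 to -0.25, adjusted p = 0.127). That contrast was called only without the filter on low levels (adjusted p = 0.0247). It also compares letter a with letter b, so knockdown and letter cannot be told apart in it. Against the control of the same letter, the Nova1 difference was -0.29 in siU2af65 and 0.24 in siPtbp1. Nova2, the main Nova gene by level, had a log2 difference of -0.03 in siU2af65 (95% interval -0.52 to 0.46) and 0.00 in siPtbp1 (95% interval -0.48 to 0.49).

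The 3 neuronal Elavl genes had small differences in the siRNA knockdowns. Elavl2 stood at 35.0 RPKM in siCtrl a, 45.2 in siCtrl b, 34.7 in siU2af65 and 41.6 in siPtbp1. Its log2 difference after U2af65 knockdown was -0.31 (95% interval -0.80 to 0.19, edgeR adjusted p = 0.446). The siU2af65 library was thus level with siCtrl a in RPKM, and below both controls with TMM scaling (125.8 CPM against 142.2 and 168.8). Elavl3 stood at 34.2, 29.9, 26.7 and 35.6 RPKM in the same order, with a difference of -0.37 after U2af65 knockdown (95% interval -0.89 to 0.15, adjusted p = 0.367). Elavl4 stood at 29.9, 36.8, 40.5 and 34.6 RPKM, with an interval from -0.29 to 0.66.

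None of the 9 tested genes passed edgeR's test after Ptbp1 knockdown, and 0 had an unadjusted p under 0.05. DESeq2 and limma also called 0 of the 9. Over all genes edgeR called 3 of 11237, or 0.0267%, and 481 genes had an unadjusted p under 0.05. The median log2 difference was 0.00 over the 9 genes and 0.01 over all. Nova1 lay above both controls (34.8% of genes did), Rbfox2 and Mbnl2 lay below both (28.9%), and the other 6 lay between them. Elavl4, Elavl2, Nova2 and Rbfox1 differed from the control mean by less than 0.01 on the log2 scale, but the intervals are wide, running for Elavl4 from -0.47 to 0.48. Mbnl2 had a difference of -0.31 (95% interval -0.79 to 0.17) and Mbnl1 one of -0.12 (95% interval -0.62 to 0.38). In the direct contrast of siU2af65 with siPtbp1, where 3.62% of genes were called (1.09% higher, 2.54% lower), 0 of the 9 passed, as with DESeq2 and limma, and 2 (Mbnl1 and Nova1) had an unadjusted p under 0.05, as did 20.8% of all genes tested. Mbnl1 came closest, at -0.89 (SE 0.26, edgeR adjusted p = 0.0865), and was called with library totals in place of TMM (adjusted p = 0.0318) and without the filter (adjusted p = 0.0423). Both knockdowns share their 2 controls, so the differences from them are not independent. The siU2af65 and siPtbp1 libraries carry different letters, so their direct contrast cannot tell knockdown from letter.

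**Figure D3:**
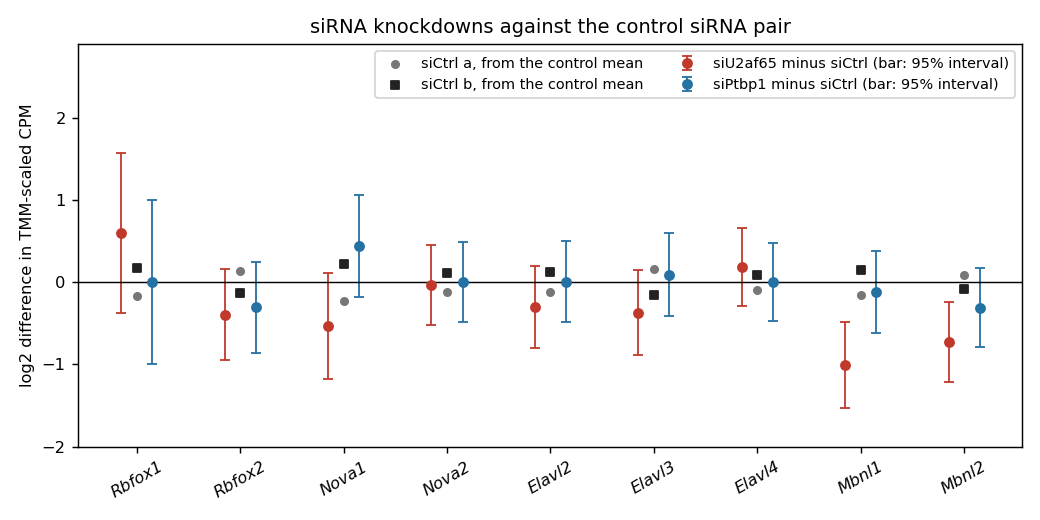
Log2 differences in TMM-scaled CPM of siU2af65 (red) and siPtbp1 (blue) from the 2 control siRNA libraries, with 95% intervals from edgeR. Grey circles and black squares give siCtrl a and b around their mean. Mbnl1 at -1.01 is the gene whose siU2af65 difference passed the test, and Mbnl2 at -0.72 is the next lowest.

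In the nSR100 hairpin cells Nova2, Elavl3 and Elavl4 were at lower levels than in the GFP hairpin cells. Mbnl1 and Elavl2 were higher, but in RPKM by less than the 2 control siRNA libraries differed from each other. With TMM scaling this still held for Elavl2, while Mbnl1 differed slightly more than the control pair (0.30 against 0.24 on log2(RPKM + 1)). With 1 file a group there is no test, and the intervals below are exact binomial at 95% and cover counting error only. Nova2 was 13.8 RPKM in shGFP (7246 reads) and 7.36 in shnSR100 (4738 reads), or 53.5% of the control (51.6 to 55.5%). The shGFP value was the highest and the shnSR100 value the lowest of the 6 files. Elavl3 was 46.9 and 28.2 RPKM, or 60.2% (58.7 to 61.7%), and Elavl4 was 49.3 and 34.0 RPKM, or 68.9% (67.1 to 70.8%). For both Elavl genes shGFP was the highest of the 6 files, while shnSR100 lay within the range of the siRNA files in RPKM. With TMM scaling Elavl3 in shnSR100 was still within that range, whereas Elavl4 was below it, at 31.7 against a lowest siRNA value of 33.9 in siCtrl a. The differences of these 3 genes thus involve an shGFP file that stood above all others.

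The other members had smaller hairpin differences. Mbnl1 was 125.2% of shGFP (122 to 129%), Elavl2 109% (106 to 111%), Nova1 89.1% (84.8 to 93.5%), Rbfox2 82.2% (80.5 to 83.9%) and Mbnl2 81.6% (79.2 to 84.1%). Mbnl1 and Mbnl2 therefore lay on opposite sides of the shGFP level. They also did so in siCtrl b against siCtrl a, at 134% and 96.6%. Rbfox1 was 116% (98.5 to 137%) and Rbfox3 70.9% (48.0 to 105%), both with intervals that include equal levels. None of the 9 genes with at least 1 RPKM in a hairpin file differed by 1 or more on log2(RPKM + 1), which 0.918% of 11877 genes did. Their median difference was -0.28, against 0.03 over all genes. As a measure of spread, siCtrl b against siCtrl a gave 149% for Nova1, 138% for Rbfox1, 134% for Mbnl1, 129% for Elavl2, 128% for Nova2 and 123% for Elavl4. It gave 96.6% for Mbnl2, 90% for Rbfox2 and 87.5% for Elavl3. These are on RPKM, whose median over all genes was 0.15 higher in siCtrl b on the log2(RPKM + 1) scale. No member reached a difference of 1 in that pair, and 1.71% of genes did (0.952% lower in siCtrl b). With TMM scaling, the hairpin difference was no larger in size than that of the control pair for Elavl2 (0.10 against 0.20) and Rbfox2 (-0.29 against -0.31). The same held for Nova1 (-0.16 against 0.33) and Rbfox1 (0.10 against 0.16). For Nova2, Elavl3, Elavl4, Mbnl1 and Mbnl2 the hairpin difference was larger. Rbfox3 gave -0.10 against 0.01, but its control libraries held 1 and 4 reads, too few to measure a spread.

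**Figure D4:**
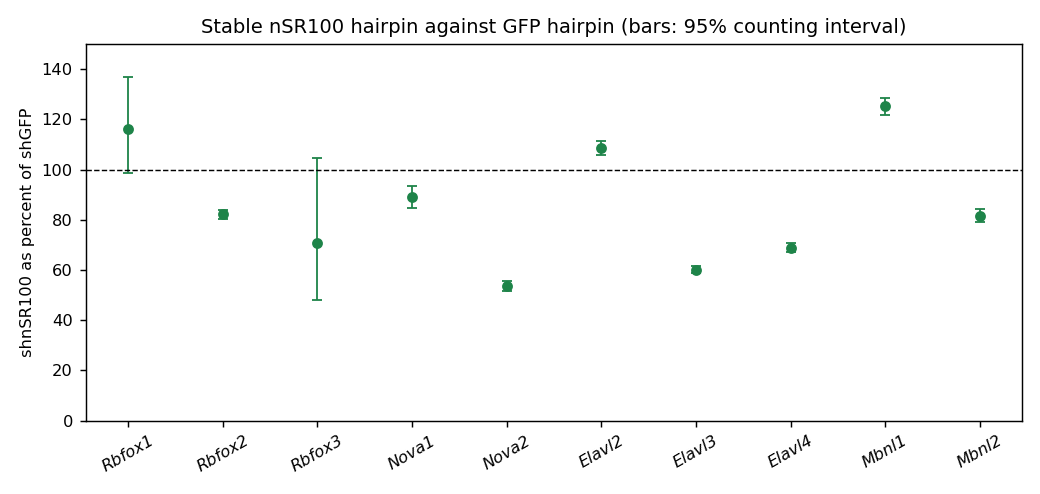
RPKM in shnSR100 as a percent of shGFP for the 10 genes, with 95% exact binomial counting intervals and a dashed line at 100%. Nova2 at 53.5%, Elavl3 at 60.2% and Elavl4 at 68.9% lie lowest among the genes with narrow intervals.

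Neuronal marker genes were also lower in the nSR100 hairpin file. The 14 N2A identity markers summed to 1283 RPKM in shGFP and 784.6 in shnSR100, against 1176 to 1341 in the siRNA files. Their median difference between the hairpin files was -0.55 over the 11 counted, and Mycn and Snap25 (a synaptic fusion protein gene) differed by -1.18 each. In bulk RNA, fewer cells of a type and less RNA per cell cannot be told apart, and the part of this in the Nova2 and Elavl differences was not tested.

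Rbfox3, which encodes NeuN, was found almost only in the hairpin cells. It had 1 read in siCtrl a, 4 in siCtrl b, 2 in siU2af65, 3 in siPtbp1, 60 in shGFP and 52 in shnSR100. The groups did not overlap: 112 reads in the 2 hairpin files against 10 in the 4 siRNA files is a 23.4-fold higher rate per read in genes (95% counting interval 12.3 to 50.1, exact binomial). At 0.32 RPKM or less it was still far below every other member. The same pattern, at least 50 reads in both hairpin files and at most 5 in every siRNA file, was found in 29 of 12902 genes (0.225%). Mbnl3 was likewise 0.20 RPKM in shGFP and 0.52 in shnSR100, against 0.03 or less in the siRNA files, and Dcn, a fibroblast marker, was 3.99 and 5.70 against 0.15 to 0.54. The 6 fibroblast markers summed to 7.27 and 12.18 RPKM in the hairpin files, with Col3a1 at 0 in all. Whether these markers bear on the Rbfox3 reads was not tested. Hairpin and siRNA cells also differ in delivery, selection and combined runs, and these cannot be told apart. Of the other members, both hairpin files lay above all siRNA files for Nova1, Mbnl1 and Mbnl2 in RPKM, as for 30.3% of genes with at least 1 RPKM, and with TMM scaling this held for Mbnl1 but not for Nova1 or Mbnl2 (23.9% of genes).

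By a likeness rule, the genes closest in pattern over the 6 files were found for the 3 members with the widest range on log2(RPKM + 1), which were Mbnl1 (1.54), Mbnl2 (1.00) and Nova1 (0.98). The measure was the root mean square difference of centred values among 3891 genes with a range of at least 1. Nearest to Mbnl1 were Notch2, a receptor gene of the Notch pathway (0.06), and Rdm1 (0.07). Notch2 stood at 3.61 RPKM in siU2af65 and 12.1 in shnSR100, its lowest and highest files, as for Mbnl1. Nearest to Mbnl2 were Phldb1 (0.05) and Ilk, the integrin-linked kinase gene (0.09), and nearest to Nova1 were Map4k1 (0.07) and Ric3, an acetylcholine receptor chaperone gene (0.09). Over 6 files this is a description only.

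Other regulated splicing factors showed few calls in the same fits. Of 27 listed genes 18 were tested. After U2af65 knockdown 1 fell and 0 rose, a share close to the 5.24% of all genes called, with a median log2 difference of -0.29. It was Celf6, a neuronal CELF family gene, at -1.24 (SE 0.29, edgeR adjusted p = 0.0422). After Ptbp1 knockdown the 1 call was Ptbp1 itself, and the median was -0.12. Elavl1, the ubiquitous paralog of the neuronal Elavl genes, stood at 38.8 to 45.6 RPKM in all 6 files. Between the hairpin files 4 of 19 were lower by 1 or more on log2(RPKM + 1), against 0.615% of all genes, and 0 were higher. They were Srrm4 (-1.85), Celf3 (-1.27), Celf6 (-1.06) and Srrm3 (-1.03). Srrm4 is the target of the hairpin, so its place in this count was set by the design. The list was also chosen with earlier results of these data known. Khdrbs2, Khdrbs3, Esrp1, Rbm24 and Celf2 were listed at 0.01 RPKM or less in every file.

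A list of 10 mRNAs known as targets of neuronal Elavl proteins was followed for comparison, and 9 were tested. None passed edgeR's test after U2af65 or Ptbp1 knockdown, and their medians were -0.22 and -0.13. After U2af65 knockdown Myc (0.71, adjusted p = 0.0708), Cdkn1a (adjusted p = 0.0728) and Fos (-1.49, adjusted p = 0.0771) came closest. In the direct contrast of siU2af65 with siPtbp1, Myc was higher by 1.27 (SE 0.24, edgeR adjusted p = 0.0264) and Fos lower, at -2.16 (SE 0.49, adjusted p = 0.0453), in a contrast where 3.62% of all genes were called. That contrast also compares letter a with letter b. Between the hairpin files, Ache (acetylcholinesterase) was 42.4 RPKM in shGFP and 14.4 in shnSR100, and Mycn was 26.9 and 11.3. These were the 2 of 9 past a difference of 1, at -1.50 and -1.18, against 0.918% of all genes (0.615% lower). Gap43, the growth cone protein gene bound by HuD, was 220.3 and 122.7 RPKM. The list shares Gap43 and Mycn with the identity markers.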

How the data were processed

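The 6 N2A RNA-seq files of polyA RNA were used. The authors deposited, per Ensembl gene, a raw read count and an RPKM value (none for 1114 genes). Per the submitters' processing notes, Bowtie, bedtools 2.17.0 and builds hg19 and mm9 were named with no role; the counting rule, strand and annotation are not given in the sources used here. RPKM equalled the deposited count divided by a fixed length per gene and the file's total, within 0.491% between files. Blank counts were read as 0. Symbols matched 20759 of 22667 identifiers. The 293T files and the crosslinking libraries were not analysed here.

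edgeR 4.0.16 (R 4.3.3) was run on the counts of the 4 siRNA libraries, with TMM, on the 11237 genes whose average reached 1 RPKM. The quasi-likelihood test had Benjamini-Hochberg adjustment over all of them and a threshold of 0.05. The control pair gives 1 residual degree of freedom (8.65 prior), and each lone knockdown library is assumed to vary like the controls. SE is the size of the log2 difference divided by the square root of F. Alternatives were DESeq2 1.42.0, limma 3.58.1 on log2(RPKM + 1), other scalings and filters, and shGFP added to the controls. Functions were tested on simulated data. Single files were compared by log2(RPKM + 1), with a difference of 1 counted where a file reached 1 RPKM.

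The 10 genes were all named, and likeness was by smallest root mean square difference. Genes and lists (identity, glial, immune, fibroblast, endothelial and muscle markers, other splicing factors, Elavl targets) were chosen with earlier results of these data known. Endothelial markers summed to 4.61 to 9.38 RPKM and muscle markers to 50.96 to 72.75 RPKM, nearly all from Myh3.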

Additional observations from a re-analysis of the deposited data

How the results depend on the processing

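Over all genes, the calls for siU2af65 against the controls were 589 (205 higher, 384 lower) with edgeR and TMM. They were 1162 with library totals (581 higher, 581 lower), 1045 with DESeq2, 1285 with limma on log2(RPKM + 1) (655 higher, 630 lower), 1649 without a filter, 257 with a mean of at least 5 RPKM and 0 with shGFP added to the controls, where 1162 genes had an unadjusted p under 0.05. For siPtbp1, 3 calls (all lower) became 86 with library totals (14 higher, 72 lower), 20 with DESeq2, 99 with limma, 99 without a filter, 1 with at least 5 RPKM and 0 with shGFP added (167 at an unadjusted p under 0.05). For siU2af65 against siPtbp1, 407 (122 higher, 285 lower) became 985 (435 higher, 550 lower), 789, 1066, 1279 and 114 under the first 5 of these. With a pseudocount of 0.1, the hairpin count of 109 became 247 and the control pair's count of 194 became 505. The cause was not tested.

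Of the 9 tested genes, 1 was called after U2af65 knockdown, 2 without a filter, and 0 with at least 5 RPKM or with shGFP added. In the contrast of the knockdowns 0 became 1 with library totals and 2 without a filter, where Nova1 was -1.02 and Mbnl1 -0.94. Among the recomputed differences of single members, 145 of those with a test kept sign and side of the threshold, 4 passed it newly, 2 no longer passed and 23 changed sign, the last all for genes that did not pass the test. With a control left out, each value moves by an amount set by the difference between the 2 controls. The size of the move is therefore no check on the result. Of these 36 values, 7 changed sign, 0 of them for a called gene. These were Nova2 after U2af65 knockdown (0.094 without siCtrl b) and, after Ptbp1 knockdown, Elavl3 (-0.054) and Mbnl1 (0.042) without siCtrl b and Rbfox1 (-0.16), Nova2 (-0.11), Elavl2 (-0.11) and Elavl4 (-0.081) without siCtrl a. After U2af65 knockdown Nova2 was 0.066 with library totals and 0.069 with limma. In the contrast of the knockdowns Nova2 was 0.016 with library totals, 0.014 with limma and 0.0059 with at least 5 RPKM. After Ptbp1 knockdown, with RLE, DESeq2 and no filter, Rbfox1 was -0.0060, -0.0058 and -0.0084, Nova2 -0.0067, -0.0067 and -0.0097, Elavl2 -0.0057, -0.0057 and -0.0087, and Elavl4 -0.0067, -0.0067 and -0.010. With at least 5 RPKM Nova2 was -0.019, Elavl2 -0.018 and Elavl4 -0.018. With shGFP added Nova2 was -0.18, Elavl3 -0.066 and Elavl4 -0.16. The 10 mean levels moved by less than their SD with TMM-scaled RPKM.

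No paired analysis was possible because each siRNA knockdown has 1 library, sharing a letter with 1 control, and the hairpin runs share a pooled file. Leaving out a control leaves no residual degree of freedom, so it gives values but no counts of calls. Rbfox1 and Rbfox3 are limited by their read numbers.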
